A study of Mus musculus with 4 samples.

Results

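The genes described here encode the enzymes that build and remodel glycerophospholipids, the main lipids of cell membranes. They were chosen by symbol, and all 33 listed symbols were found among the 54446 mouse genes of the deposited count table. RNA was sequenced from tongue-derived epithelial cells of C57BL/6 mice grown in RPMI-1640 with 10% FBS. The groups were 2 libraries titled Otub2 KO, with a systemic knockout of the deubiquitinase gene Otub2 (3 and 4), and 2 wild-type libraries (Control 1 and 2). The labels give neither the age of the mice nor the deleted part of Otub2. They also do not say whether the replicates were separate mice or cultures, so a p-value measures only how far these 4 samples spread, possibly for technical reasons. The count columns of libraries 3 and 4 are headed OE where the titles say KO. Columns were assigned by number and the titles were followed, so the 2 are named here by their label, as labelled Otub2 knockout, and a direction drawn from them rests on that label.

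Glycerophospholipids are made from glycerol-3-phosphate, which receives fatty acids from glycerol-3-phosphate acyltransferases and then from lysophosphatidate acyltransferases to give phosphatidate. Lipins remove its phosphate to give diacylglycerol, which the Kennedy pathway joins to activated choline or ethanolamine to form phosphatidylcholine and phosphatidylethanolamine. CDP-diacylglycerol synthases instead activate phosphatidate for phosphatidylinositol, phosphatidylglycerol and cardiolipin. Lysophospholipid acyltransferases then exchange the acyl chains of finished lipids, a remodelling known as the Lands cycle.

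Total counts were 23017183 and 19085713 in the libraries labelled Otub2 knockout 3 and 4, against 12541345 and 11882900 in the controls. Otub2 itself reached 18.8 and 23.7 CPM in libraries 3 and 4, against 27.2 and 26.6 CPM in the controls, where CPM is the count divided by library size, with each library scaled by TMM, a trimmed mean of log ratios (log2 fold change -0.34, SE 0.302, edgeR adjusted p = 0.485). Since the deleted part is not given, this level does not check the label. Markers of other tissues differed between libraries. Of the 12 markers of salivary gland secretory cells, 3 and 2 were at 0 in libraries 3 and 4, against 1 and 1 in the controls, and the list summed to 398848 CPM in library 3 and 21.3 CPM in library 4, against 8.72 and 7.89 CPM in the controls, with 1 above and 2 below both controls. Mucl2 made up most of the sum of library 3, at 377096 CPM, followed by Prol1 at 20346 CPM. Lpo, Smgc, Bhlha15 and Aqp5 ran from 575 down to 146 CPM there. Amy1, Muc5b and Bpifb2 were at 2.35, 0.897 and 0.483 CPM there. The 10 cardiomyocyte markers summed to 19640 and 34.8 CPM in libraries 3 and 4, against 59.7 and 59.4 CPM in the controls, with 0 above or below both. The 10 keratinocyte markers, of the labelled cell type, summed to 30277 and 41823 CPM in libraries 3 and 4, against 61437 and 55469 CPM in the controls, with 7 below both controls and 0 at zero counts. The 10 fibroblast markers summed to 711 and 468 CPM in the Otub2 KO-labelled libraries 3 and 4, against 163 and 204 CPM in the controls, and 6 of them lay above both controls. Skeletal muscle markers summed to 436 and 98.6 CPM in libraries 3 and 4, against 55.1 and 51.0 CPM in the controls, with 1 of 10 above and 3 below both controls. Most of the sum in library 3 was Ckm and Acta1, at 287 and 128 CPM. The 6 endothelial markers summed to 247 and 67.9 CPM in libraries 3 and 4, against 70.1 and 60.5 CPM in the controls, with 3 above and 0 below. The part of these cell types in the results below was not tested. In such bulk RNA, a different number of cells of a type and a different amount of RNA per cell cannot be told apart.

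By FPKM, the authors' value scaled by gene length and library depth, phosphatidylinositol synthase Cdipt had the highest level of the family in library 4 and in both controls, at 34.8 FPKM in library 4, against 35.4 and 26.5 FPKM in the controls. In library 3 it was at 19.997 FPKM, below Chpt1 at 28.5 FPKM. FPKM serves here to rank genes within a library, not to compare libraries. Mucl2 held 5462635 of the 22719550 gene counts of library 3, and scaling by depth takes no account of that. On TMM-scaled CPM, Cdipt was at 82.4 CPM in library 3 and 82.4 CPM in library 4. The lowest 2 genes in every library were Mboat2, at 0.136 and 0.208 FPKM in libraries 3 and 4, against 0.367 and 0.317 FPKM in the controls, and Chkb, at 0.199 and 0.633 FPKM in libraries 3 and 4, against 0.599 and 0.522 FPKM in the controls. All 33 genes passed the filter on low counts, and 30 had a mean of at least 5 CPM. The other 3 were Chkb, Pemt and Mboat2.

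**Figure D1:**
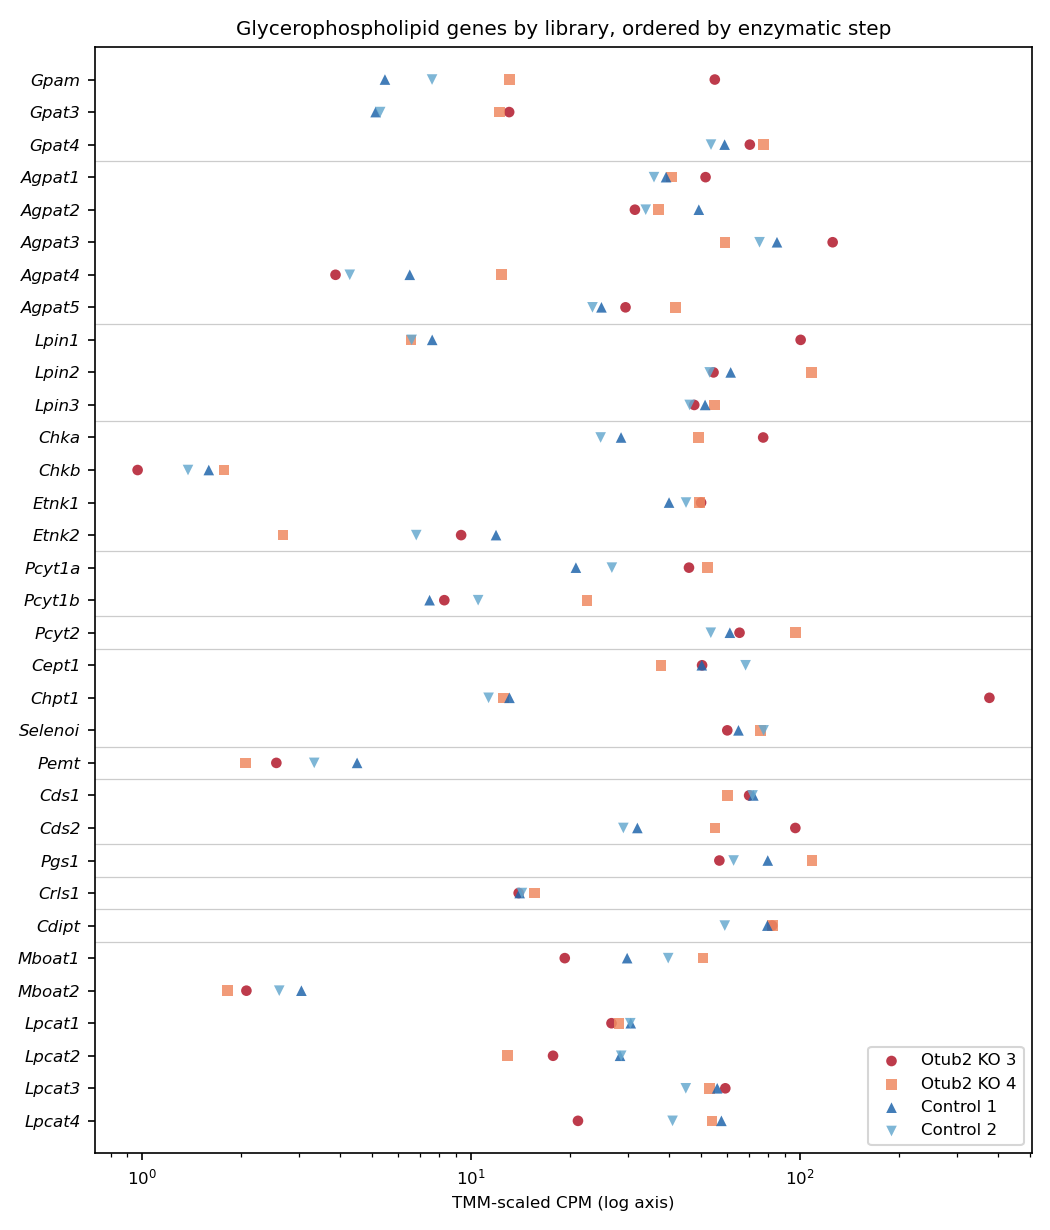
TMM-scaled CPM of the 33 glycerophospholipid genes in each of the 4 libraries, on a log axis, with grey lines between enzymatic steps. Chpt1, Lpin1 and Gpam stand far to the right in library 3, at 377, 101 and 55.1 CPM.

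No member passed the test. EdgeR's quasi-likelihood test with Benjamini-Hochberg adjustment called 0 of 33 members higher and 0 lower, as it did for 0% of the 21916 genes tested in each direction (smallest edgeR adjusted p 0.166 among the members). At an unadjusted p under 0.05, 6 members were higher (Chka, Cds2, Pcyt1a, Gpat3, Gpam and Chpt1) and 1 was lower (Lpcat2), beside 2064 and 3325 of the 21916 genes. The 21916 include many low genes, and their median log2 fold change was 0.086, against 0.41 for genes with a mean of at least 5 CPM. Most members are of the latter kind, so no excess is read from these counts. Voom also called 0 in each direction. With library size alone edgeR called 0 members, beside 0.233% of genes higher and 8.63% lower, and without a filter 0 members, beside 0.0127% and 0.00633% of 47373 genes. DESeq2 called 3 members higher (Gpat3, Gpam and Chpt1) and 0 lower, where it called 4.89% and 1.62% of 15967 genes. The smallest exact two-sided permutation p that 2 libraries against 2 allow is 0.333.

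The counts of members above and below both controls are read against those of all expressed genes. Of the 30 members with a mean of at least 5 CPM, 11 had both libraries labelled Otub2 knockout above both controls and 3 had both below, where 42.7% and 11.9% of 11788 such genes did. The median log2 fold change was 0.24 over these 30 members and 0.41 over the 11788 genes. Zero on this scale is therefore not the centre of expressed genes, and 12 of the 30 members lay above that centre. The centre depends on the scaling. With upper-quartile size factors, library size alone or centring on the median of expressed genes, the centre moved to -0.068, -0.043 and -0.077. With upper-quartile factors, 5 of the 30 members lay above and 12 below, beside 15.8% and 31.2% of expressed genes. With library size alone they were 4 and 6, beside 12.9% and 21.5%, and with centring on the median 5 and 12, beside 15.4% and 31.7%. Chka, Cds2, Gpat3 and Gpam lay above both controls under all 5 scalings tried. Pcyt1a did so under 4, and its groups overlapped with library size alone. Lpcat2, Lpcat1 and Cds1 lay below both controls under all 5, as did Pemt and Mboat2 of the 3 low genes. The share of all expressed genes that kept such a position under all 5 was not counted, so these members are not set apart by it. The lowest share under a single scaling was 12.9% above, with library size alone, and 10.4% below, with RLE size factors.

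The first acylation showed higher levels of Gpam and Gpat3 in both libraries labelled Otub2 knockout. Gpat3 (ENSMUSG00000029314, chromosome 5, 100845713 to 100899102, plus strand, GRCm38), an acyltransferase of the endoplasmic reticulum, had 13.05 and 12.2 CPM in the Otub2 KO-labelled libraries 3 and 4, against 5.12 and 5.29 CPM in the controls. It was the only member at least 2-fold beyond both controls in both libraries, as were 3.8% of the 11788 genes. In the lower direction 0 members were, and 1.5% of genes. Its log2 fold change was 1.28 (SE 0.393, 95% interval 0.28 to 2.28, edgeR adjusted p = 0.171). The exons of Gpat3 overlap an antisense gene, 4930458D05Rik, over part of the 37.4% of exon bases shared with other genes. That gene had 30 and 25 counts in libraries 3 and 4, against 52 and 31 counts in the controls. Gpam, the mitochondrial acyltransferase often taken as rate limiting for glycerolipid synthesis, was at 55.1 CPM in library 3 and 13.1 CPM in library 4, against 5.47 and 7.60 CPM in the controls. Both libraries were above both controls, but library 3 was 4.22-fold above library 4. Its log2 fold change was 2.38 (SE 0.744, 95% interval 0.49 to 4.27, edgeR adjusted p = 0.172), 1.03 without library 3 and 3.07 without library 4. Gpat4, the other enzyme of the endoplasmic reticulum, was at 70.4 and 77.6 CPM in libraries 3 and 4, against 59.0 and 53.7 CPM in the controls (log2 difference by edgeR 0.39, SE 0.241, edgeR adjusted p = 0.333). That difference is about the centre of expressed genes, and it turned to -0.074, -0.038 and -0.082 under the 3 scalings that moved the centre.

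The lysophosphatidate acyltransferases, which add the next fatty acid, showed no shared direction. Agpat1 had 51.6 and 40.8 CPM in the Otub2 KO-labelled libraries 3 and 4, against 39.2 and 36.0 CPM in the controls. Agpat2, whose human counterpart is mutated in congenital lipodystrophy, was at 31.5 and 37.1 CPM in libraries 3 and 4, against 49.3 and 33.96 CPM in the controls, with overlapping groups. Their log2 fold changes were 0.30 and -0.28 (SE 0.268 and 0.308, edgeR adjusted p = 0.491 and 0.572). Agpat4 was at 3.87 CPM in library 3 and 12.3 CPM in library 4, against 6.503 and 4.27 CPM in the controls, so the controls lay between the 2 libraries labelled Otub2 knockout. Agpat3 split the other way, at 126 and 59.1 CPM in libraries 3 and 4, against 85.2 and 75.4 CPM in the controls. Agpat5 lay above both controls in both libraries, at 29.5 and 41.9 CPM in libraries 3 and 4, against 24.9 and 23.4 CPM in the controls (log2 difference by edgeR 0.56, SE 0.311, edgeR adjusted p = 0.296). Its groups overlapped under the 3 scalings that moved the centre, and 18.9% of its exon bases are shared with another gene.

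Among the lipins, Lpin1 differed between the libraries labelled Otub2 knockout more than between groups. Lpin1, a phosphatidate phosphatase prominent in muscle and fat, had 1456 counts in library 3 and 137 in library 4, against 110 and 91 in the controls. On the CPM scale this was 101 and 6.55 CPM in libraries 3 and 4, against 7.61 and 6.59 CPM in the controls. Library 3 was 14.2-fold above the mean of the controls, and library 4 was 0.923 times that mean. The log2 fold change of 2.91 (SE 1.21, 95% interval -0.16 to 5.99, edgeR adjusted p = 0.213) became -0.089 without library 3. Library 3 is also the one with the high cardiomyocyte sum, whose part in the value of Lpin1 was not tested. The adipocyte marker Adipoq had 1 and 1 counts in libraries 3 and 4, against 2 and 2 counts in the controls, and Plin1 had 12 and 14 counts in libraries 3 and 4, against 50 and 44 counts in the controls. The 8 adipocyte markers summed to 199.5 and 43.0 CPM in libraries 3 and 4, against 101 and 59.7 CPM in the controls, with 1 above and 5 below both controls. The 1 above was Pparg, at 5.38 and 4.54 CPM in libraries 3 and 4, against 2.97 and 2.61 CPM in the controls. Most of each sum was Fabp4, at 188 and 36.1 CPM in libraries 3 and 4, against 87.4 and 46.8 CPM in the controls. Lpin2 was at 54.6 and 108 CPM in libraries 3 and 4, against 61.6 and 53.1 CPM in the controls, with library 4 above both controls and library 3 between them. Lpin3 was at 47.7 and 55.0 CPM in libraries 3 and 4, against 51.5 and 46.2 CPM in the controls.

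In the Kennedy pathway, the choline kinase Chka was higher in both libraries labelled Otub2 knockout. Chka (ENSMUSG00000024843, chromosome 19, 3851773 to 3894369, plus strand), which phosphorylates choline in the committed step, was at 77.3 and 49.2 CPM in libraries 3 and 4, against 28.6 and 24.8 CPM in the controls. The lower library labelled Otub2 knockout was 1.72-fold above the higher control. The log2 fold change was 1.25 (SE 0.326, 95% interval 0.42 to 2.07, edgeR adjusted p = 0.166), and it ranged from 0.91 to 1.53 when each library was left out in turn. The ethanolamine kinase Etnk1 was at 50.05 and 49.5 CPM in libraries 3 and 4, against 39.98 and 45.03 CPM in the controls (log2 difference by edgeR 0.23, SE 0.246, edgeR adjusted p = 0.565), and lay below both controls under upper-quartile scaling and centring on the median. Etnk2, the related kinase best known from liver, was at 9.32 and 2.68 CPM in libraries 3 and 4, against 11.9 and 6.81 CPM in the controls, low in library 4 only. Chkb, the choline kinase whose loss causes muscle disease in mice, had 14 and 37 counts in libraries 3 and 4, against 23 and 19 counts in the controls, too few to show a small difference. Of its exon bases 57.6% are shared with other annotated genes.

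The next step, the activation of phosphocholine with CTP, is the one usually taken as rate limiting for phosphatidylcholine. Its main enzyme Pcyt1a (ENSMUSG00000005615, chromosome 16, 32430921 to 32475070, plus strand) had 46.0 and 52.4 CPM in the Otub2 KO-labelled libraries 3 and 4, against 20.8 and 26.8 CPM in the controls. Both libraries lay at least 1.72-fold above both controls. The log2 fold change was 1.05 (SE 0.285, 95% interval 0.32 to 1.77, edgeR adjusted p = 0.166), with a range of 0.89 to 1.27 when each library was left out. Of its exon bases 9.09% are shared with other genes, among them Slc51a, at 15 and 4 counts in libraries 3 and 4, against 8 and 7 counts in the controls. The second isoform, Pcyt1b, was at 8.28 and 22.5 CPM in libraries 3 and 4, against 7.47 and 10.5 CPM in the controls, so only library 4 lay beyond the controls. Pcyt2, the matching enzyme for phosphoethanolamine, was at 65.5 and 97.0 CPM in libraries 3 and 4, against 61.2 and 53.6 CPM in the controls (log2 difference by edgeR 0.50, SE 0.298, edgeR adjusted p = 0.323), with library 3 close to the higher control.

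At the last step of the pathway, Cept1 and Selenoi were not above both controls, and Chpt1 was far above them in library 3. Cept1, which transfers both headgroups to diacylglycerol, had 50.4 and 37.8 CPM in libraries 3 and 4, against 50.3 and 68.3 CPM in the controls (log2 difference by edgeR -0.43, SE 0.303, edgeR adjusted p = 0.392). Of its exon bases 24.9% are shared with Dennd2d or Dram2. Selenoi, the selenoprotein that transfers ethanolamine phosphate, was at 60.1 and 75.8 CPM in libraries 3 and 4, against 65.0 and 77.5 CPM in the controls, with overlapping groups. Chpt1, the choline-specific transferase, had 5463 counts in library 3 and 262 in library 4, against 189 and 156 in the controls. That was 377 and 12.5 CPM in libraries 3 and 4, against 13.1 and 11.3 CPM in the controls, so library 4 lay between the controls and library 3 was 30.95-fold above their mean. The log2 fold change of 3.998 (SE 1.49, edgeR adjusted p = 0.194) became 0.067 without library 3. Library 3 is the one with the high sums of gland and heart markers, whose part in this value was not tested. Pemt, which methylates phosphatidylethanolamine to phosphatidylcholine mainly in liver, was low throughout, at 37 and 43 counts in libraries 3 and 4, against 65 and 46 counts in the controls (log2 fold change -0.76, SE 0.478, edgeR adjusted p = 0.342).

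Of the CDP-diacylglycerol synthases, Cds2 was higher in both libraries labelled Otub2 knockout, whereas Cds1 was not. Cds2 (ENSMUSG00000058793, chromosome 2, 132263148 to 132312050, plus strand) was at 96.9 and 55.2 CPM in libraries 3 and 4, against 32.0 and 29.0 CPM in the controls. The log2 fold change was 1.32 (SE 0.353, 95% interval 0.42 to 2.21, edgeR adjusted p = 0.166), 0.88 without library 3 and 1.66 without library 4. Cds1 was at 70.1 and 60.3 CPM in libraries 3 and 4, against 72.2 and 71.8 CPM in the controls (log2 difference by edgeR -0.14, SE 0.242, 95% interval -0.76 to 0.47, edgeR adjusted p = 0.715). Of the enzymes that use their product, Cdipt was at 82.4 and 82.4 CPM in libraries 3 and 4, against 79.6 and 59.1 CPM in the controls, above both controls by less than the controls differed. Pgs1, which starts phosphatidylglycerol synthesis in mitochondria, was at 56.9 and 109 CPM in libraries 3 and 4, against 79.8 and 62.8 CPM in the controls, on either side of the controls. Crls1, the cardiolipin synthase, was at 13.9 and 15.6 CPM in libraries 3 and 4, against 14.0 and 14.3 CPM in the controls, with overlapping groups.

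Among the remodelling enzymes, Lpcat2 lay below both controls in library 3 and in library 4. Lpcat2, a lysophosphatidylcholine acyltransferase that also makes platelet-activating factor in inflammatory cells, was at 17.7 and 12.9 CPM in libraries 3 and 4, against 28.4 and 28.6 CPM in the controls. Its log2 fold change was -0.89 (SE 0.327, 95% interval -1.72 to -0.06, edgeR adjusted p = 0.190), -1.11 without library 3 and -0.69 without library 4. The 8 leukocyte markers summed to 140 and 56.2 CPM in the Otub2 KO-labelled libraries 3 and 4, against 65.0 and 65.2 CPM in the controls, with 1 above and 3 below both controls, and their part in the value of Lpcat2 was not tested. Ptprc, which marks all leukocytes, was at 8.15 and 3.97 CPM in libraries 3 and 4, against 8.99 and 8.47 CPM in the controls. Cd68, the 1 above both controls, was at 10.1 and 13.7 CPM in libraries 3 and 4, against 9.06 and 8.62 CPM. Most of the sum in library 3 was Lyz2, at 86.8 CPM, against 24.7 and 30.5 CPM in the controls. Lpcat1, the enzyme of lung surfactant lipid, was at 26.7 and 28.2 CPM in libraries 3 and 4, against 30.6 and 30.5 CPM in the controls (log2 difference by edgeR -0.15, SE 0.269). Lpcat3, which places polyunsaturated chains into phospholipids, was at 59.3 and 53.1 CPM in libraries 3 and 4, against 56.0 and 45.0 CPM in the controls (log2 difference by edgeR 0.15, SE 0.260, edgeR adjusted p = 0.713), and its direction turned under the 3 scalings that moved the centre. Lpcat4 was at 21.1 CPM in library 3 and 54.0 CPM in library 4, against 57.7 and 41.0 CPM in the controls, and Mboat1 at 19.3 and 50.7 CPM in libraries 3 and 4, against 29.8 and 39.7 CPM in the controls. Library 3 was below both controls for each of these acyltransferases. Mboat2 was at 2.07 and 1.82 CPM in libraries 3 and 4, against 3.04 and 2.61 CPM in the controls, from 30 to 44 counts a library.

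**Figure D2:**
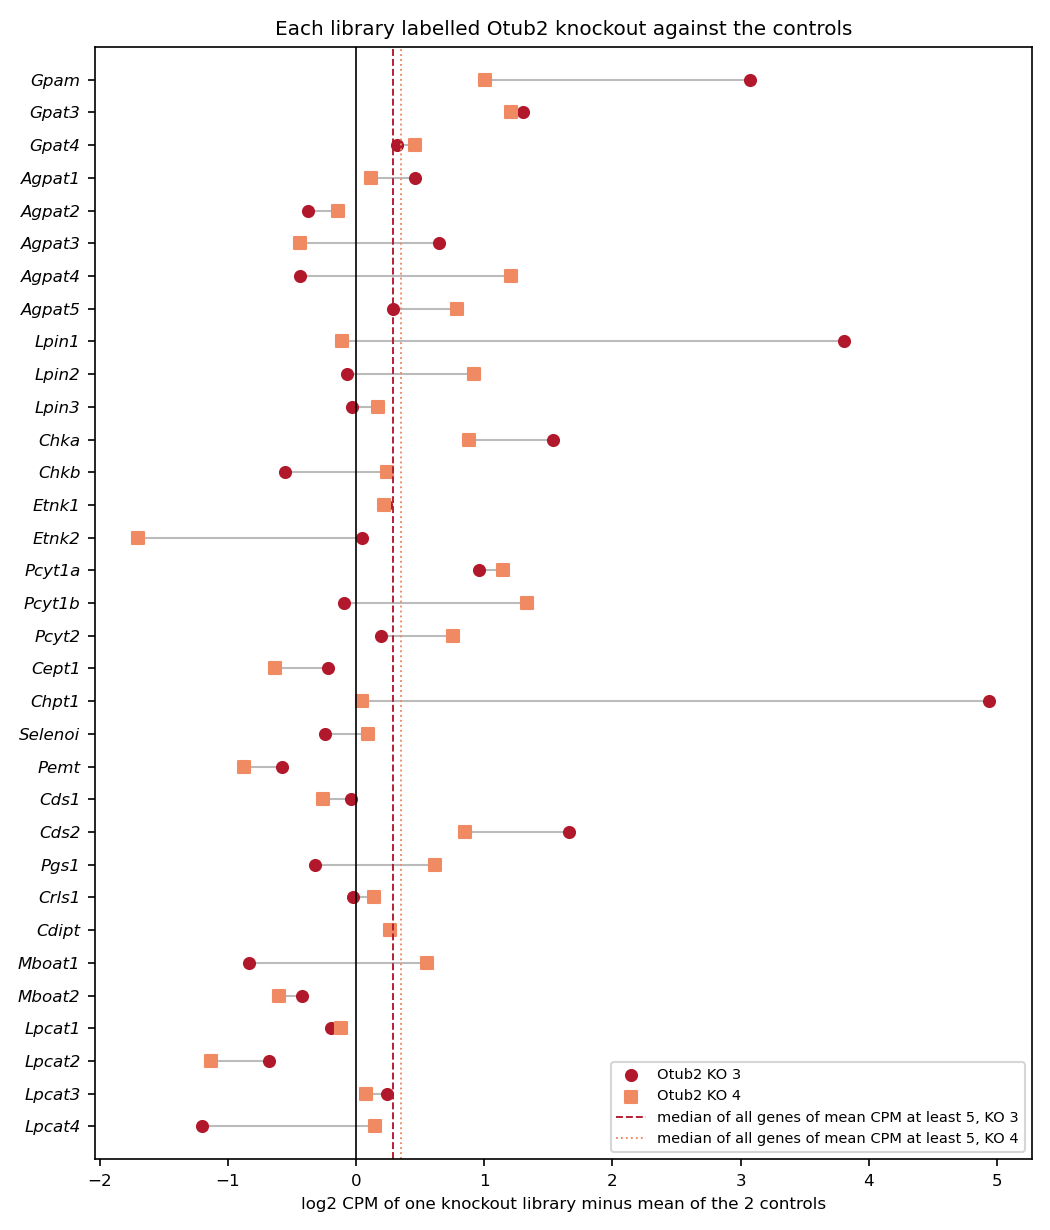
log2 CPM of library 3 (circles) and library 4 (squares) minus the mean of the 2 controls, which both share, for each of the 33 genes, with the medians of all genes with a mean of at least 5 CPM as dashed (library 3, 0.29) and dotted (library 4, 0.35) lines. Gpat3 and Pcyt1a have both points close together and right of the lines, whereas the points of Chpt1, Lpin1, Etnk2 and Agpat4 lie far apart.

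The 2 libraries labelled Otub2 knockout differed from each other for part of the family. They lay more than 2-fold apart in 9 of the 30 members with a mean of at least 5 CPM, by log2 CPM, a share of 30%, against 25.7% of the 11788 genes, while the controls lay that far apart in 0 of the 30. Library 3 was the higher for Gpam, Agpat3, Lpin1, Etnk2 and Chpt1, and library 4 for Agpat4, Pcyt1b, Mboat1 and Lpcat4. Set alone against the controls, library 4 had 11 members called higher and 3 lower by edgeR, where 18.8% and 22% of 23181 genes were called. Library 3 alone had 8 called higher and 2 lower, where 22.4% and 12.7% of 23380 genes were called. Each of these fits takes the spread of a single library from the controls, and the fits share those controls. With library 3 alone, the log2 fold change was 1.53 for Chka, 1.66 for Cds2, 0.94 for Pcyt1a, 1.32 for Gpat3 and 3.07 for Gpam. It was larger still for Lpin1, at 3.82, and Chpt1, at 4.95. With library 4 alone, it was 0.91 for Chka, 0.88 for Cds2, 1.17 for Pcyt1a, 1.25 for Gpat3 and 1.03 for Gpam. For Lpin1 and Chpt1 it was then -0.089 and 0.067.

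Isoenzyme shares within a library do not depend on the scaling between libraries, so they were set side by side for the 8 steps with more than 1 enzyme. The share of Cds2 in the summed FPKM of the CDP-diacylglycerol synthases was 37.4% and 28.3% in the libraries labelled Otub2 knockout, against 16.1% and 14.9% in the controls. Cds1 still led this step by FPKM in all 4 libraries. Chka held 52.2% and 46.8% of the choline and ethanolamine kinases in libraries 3 and 4, against 28.5% and 28.7% in the controls, and by FPKM it led the step in both libraries labelled Otub2 knockout, where Etnk1 led in both controls. By share of counts, which is not per length, Chka held 56.2% and 47.7% in libraries 3 and 4, against 34.8% and 31.8% in the controls, and in library 4 Etnk1 was level with it at 48.0%. Leads of other steps also depend on this choice. Cds2 held 58.0% of counts in library 3, ahead of Cds1, and Lpin2 was ahead of Lpin3 by counts in library 4 and both controls, at 63.8%, against 51.0% and 50.2%. Selenoi was ahead of Cept1 by counts in all 4 libraries. Per unit of Gpat4, Gpat3 was at 0.354 and 0.300 in libraries 3 and 4, against 0.166 and 0.188 in the controls. The ratio of Pcyt1a to Cept1 was 0.384 and 0.583 in libraries 3 and 4, against 0.174 and 0.165 in the controls. These 4 comparisons were picked after their values were seen, so their lack of overlap between groups is no support for a difference. The last of them joins enzymes of different steps. How many other shares or ratios separate the groups was not counted.

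For other isoenzymes the shares of the 2 libraries labelled Otub2 knockout lay far apart. Gpam made up 50.2% of the glycerol-3-phosphate acyltransferases in library 3 and 18.4% in library 4, against 12.2% and 17.2% in the controls, and Gpat4 led in the other 3 libraries. Chpt1 made up 68.6% of the phosphotransferases in library 3 and 7.76% in library 4, against 6.93% and 4.65% in the controls. Cept1 led there in the other 3 libraries, with 62.5% in library 4 against 71.2% and 75.1% in the controls. Lpin1 held 37.4% of the lipins in library 3 and 2.78% in library 4, against 3.99% and 3.89% in the controls, while Lpin3 led by FPKM in all 4 libraries. Lpcat4 led the remodelling enzymes in library 4 and both controls, with 32.2% in library 4 against 33.5% and 26.7% in the controls, and Lpcat3 led in library 3 with 43.1%. Agpat2 led its step in library 4 and both controls, with 37.0% in library 4 against 44.6% and 38.5% in the controls, and Agpat1 led in library 3 with 32.9%. In library 4 the share of Etnk2 was 6.70%, against 31.3% and 20.8% in the controls, with 16.6% in library 3. Lpcat2 likewise held 6.43% in library 4 and 12.4% in library 3, against 13.7% and 15.5% in the controls. Agpat4 held 9.72% in library 4 and 2.74% in library 3, against 4.65% and 3.82% in the controls. In all, the same enzyme led by FPKM in every library in 3 of the 8 steps, and in 7 of the 8 with library 3 left out.

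**Figure D3:**
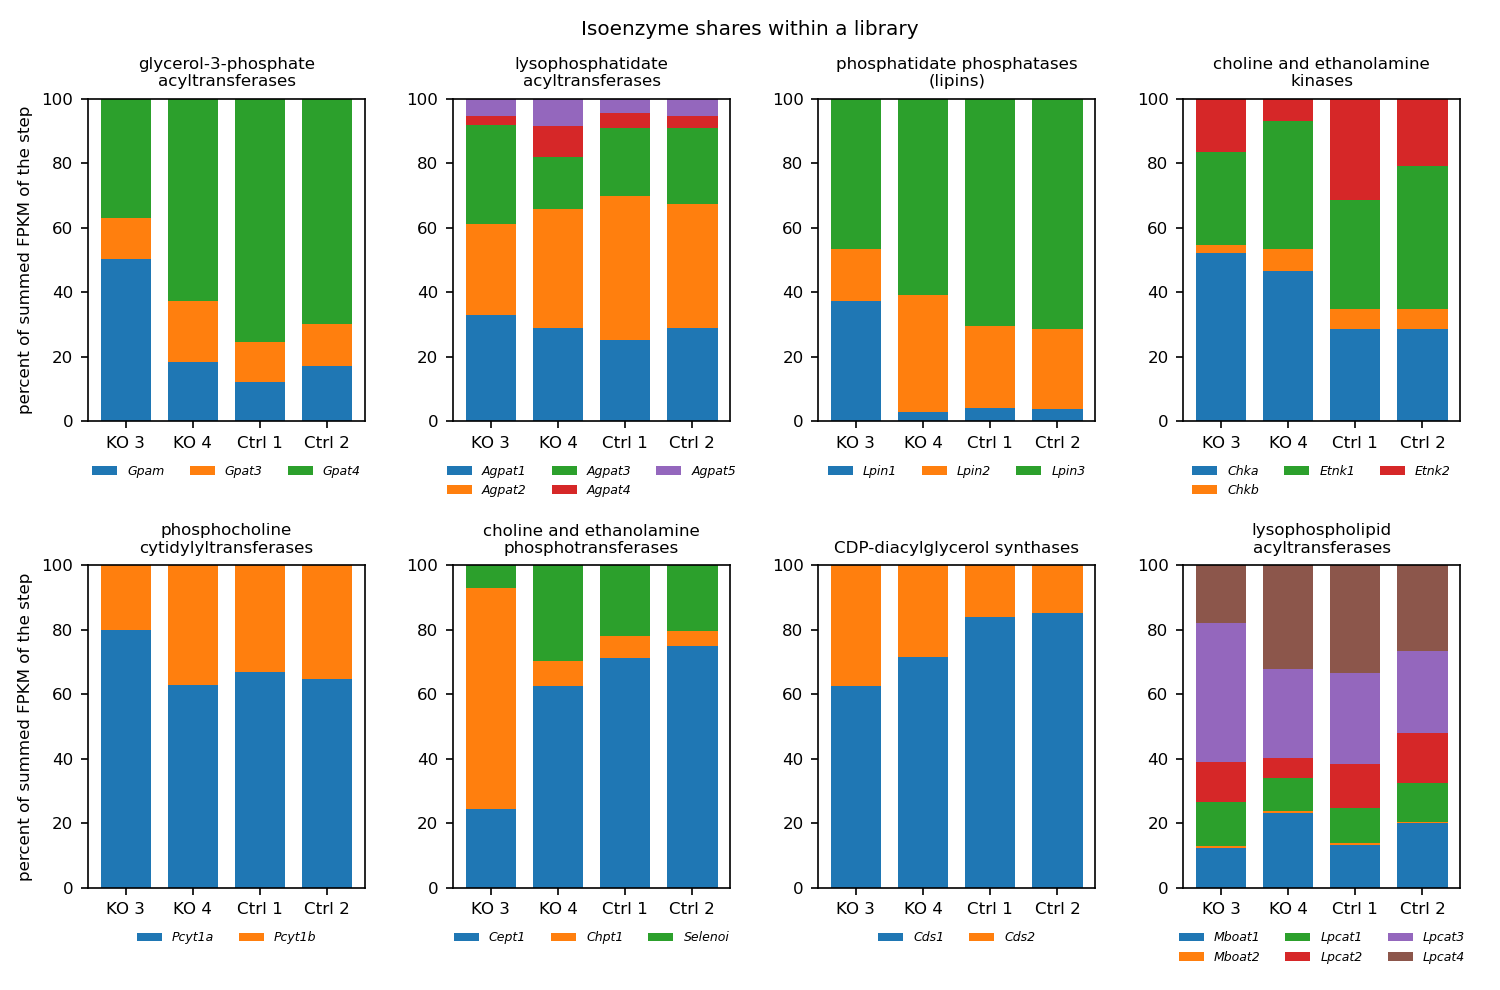
Stacked bars of each isoenzyme's percentage of the summed FPKM of its step, 1 panel per step and 1 bar per library, with the libraries labelled Otub2 knockout left of the controls. Cds2 and Chka take a larger part in both libraries labelled Otub2 knockout, and Chpt1 and Lpin1 take theirs mainly in library 3.

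The promoters of the genes that were higher in both libraries can be set beside those that were high in library 3 alone. The 250 bases before the first listed start site in RefSeq (GRCm38.p6), on the gene's strand, are shown for Chka (chr19:3851523-3851772), Pcyt1a (chr16:32430671-32430920), Cds2 (chr2:132262898-132263147) and Gpat3 (chr5:100845979-100846228), and then for Chpt1 (chr10:88503971-88504220) and Lpin1 (chr12:16610967-16611216). The last 2 lie on the minus strand, and the 6 were chosen after their values were seen. RefSeq and GENCODE, which gave the gene coordinates, place some starts differently. The Gpat3 window lies inside the GENCODE gene, which starts at 100845713. Part of the Chpt1 window lies inside its GENCODE gene, whose minus-strand start is at 88504073. For these genes the window is therefore not wholly upstream by both annotations. Capitals mark matches on either strand to any of 5 motifs. The GC box was searched as GGGCGG and the box named for its letters as CCAAT. The E-box was searched as CACGTG, a form of the sterol regulatory element as TCACNCCAC, and the TATA box as TATAAA.
Chka: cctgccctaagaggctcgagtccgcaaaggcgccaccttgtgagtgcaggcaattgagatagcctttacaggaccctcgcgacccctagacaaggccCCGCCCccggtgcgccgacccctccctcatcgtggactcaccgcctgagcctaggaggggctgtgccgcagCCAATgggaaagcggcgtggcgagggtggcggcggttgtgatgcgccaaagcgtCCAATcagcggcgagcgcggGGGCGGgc
Pcyt1a: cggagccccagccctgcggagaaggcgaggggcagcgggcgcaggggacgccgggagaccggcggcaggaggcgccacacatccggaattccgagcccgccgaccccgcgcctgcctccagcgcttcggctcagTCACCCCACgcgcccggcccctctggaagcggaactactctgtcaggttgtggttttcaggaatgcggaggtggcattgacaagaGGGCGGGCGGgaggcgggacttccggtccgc
Cds2: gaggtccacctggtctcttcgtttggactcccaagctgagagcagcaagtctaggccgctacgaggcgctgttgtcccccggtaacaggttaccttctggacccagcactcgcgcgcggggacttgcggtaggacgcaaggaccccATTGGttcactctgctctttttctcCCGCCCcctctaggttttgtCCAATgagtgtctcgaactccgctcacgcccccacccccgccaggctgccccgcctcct
Gpat3: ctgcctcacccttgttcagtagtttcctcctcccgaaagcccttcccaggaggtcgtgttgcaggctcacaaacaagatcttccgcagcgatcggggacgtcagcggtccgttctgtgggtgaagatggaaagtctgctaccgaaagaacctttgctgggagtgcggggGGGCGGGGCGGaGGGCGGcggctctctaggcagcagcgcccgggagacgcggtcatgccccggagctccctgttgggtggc
Chpt1: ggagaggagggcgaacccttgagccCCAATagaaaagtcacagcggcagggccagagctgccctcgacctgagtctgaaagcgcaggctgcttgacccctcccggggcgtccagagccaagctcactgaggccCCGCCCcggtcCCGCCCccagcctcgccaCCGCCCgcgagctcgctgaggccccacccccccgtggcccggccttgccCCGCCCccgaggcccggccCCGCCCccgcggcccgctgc
Lpin1: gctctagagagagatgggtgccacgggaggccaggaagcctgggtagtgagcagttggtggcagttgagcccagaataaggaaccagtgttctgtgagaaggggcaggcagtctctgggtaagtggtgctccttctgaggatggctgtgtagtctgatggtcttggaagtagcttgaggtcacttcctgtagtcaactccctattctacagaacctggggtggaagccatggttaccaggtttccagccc

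A match of letters is a description and does not show that a factor binds. The GC box was found in this window for 32.9% of 27025 promoters, the CCAAT box for 34.5%, the E-box for 6.05%, the sterol element for 1.04% and the TATA box for 13%. Promoters were listed for 29 of the 33 members, of which 21 held a GC box (72.4%), 14 a CCAAT box (48.3%), 2 an E-box, 1 the sterol element and 2 a TATA box. The 27025 promoters were not limited to expressed genes, whereas most members are expressed, so no excess is read from these shares. The sterol element was that of Pcyt1a. Chka and Cds2 each had 2 CCAAT boxes, and Pcyt1a and Gpat3 had 0. Of the genes high in library 3 alone, Lpin1 had a match to none of the 5 motifs, whereas Chpt1 had 5 GC boxes and 1 CCAAT box. Chka and Pcyt1a had 2 GC boxes each, Cds2 had 1 and Gpat3 had 3. Gpam, higher in both libraries but not shown, held a CCAAT box and no GC box. Matches of the GC box that overlap each other, as in Pcyt1a and Gpat3, were each counted. These counts carry no test.

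Other genes of glycerolipid metabolism were taken from a list of 47, of which 46 were tested and 40 had a mean of at least 5 CPM. EdgeR called 0 of them in either direction. Before adjustment, 9 of the 46 were higher with an edgeR p under 0.05 and 0 were lower, beside 2064 and 3325 of all 21916 genes. As for the members, the 21916 include many low genes and centre lower than expressed genes, so no excess is read from these counts. Of the 40, 14 had both libraries labelled Otub2 knockout above both controls and 5 had both below, beside the 42.7% and 11.9% of all such genes, and their median log2 fold change was 0.37. Gnpat, which starts ether lipid synthesis in peroxisomes, was at 137 and 77.6 CPM in the Otub2 KO-labelled libraries 3 and 4, against 35.8 and 36.5 CPM in the controls. Its log2 fold change was 1.57 (SE 0.352, 95% interval 0.67 to 2.46, edgeR adjusted p = 0.166; DESeq2 adjusted p = 0.0159). It was the only gene of this list at least 2-fold beyond both controls in both libraries. Lclat1, which remodels cardiolipin and phosphatidylinositol, was at 51.5 and 28.3 CPM in libraries 3 and 4, against 12.2 and 16.4 CPM in the controls (log2 difference by edgeR 1.48, SE 0.412, edgeR adjusted p = 0.166).

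Enzymes of lipid breakdown were also among those with the smallest p. Lipe, the hormone-sensitive lipase, was at 27.5 and 30.0 CPM in the Otub2 KO-labelled libraries 3 and 4, against 16.2 and 14.9 CPM in the controls. Pnpla6, which degrades phosphatidylcholine and its lyso form, was at 74.0 and 62.9 CPM in libraries 3 and 4, against 43.6 and 40.7 CPM in the controls. Their log2 fold changes were 0.89 and 0.70 (SE 0.298 and 0.249, edgeR adjusted p = 0.180 and 0.187). Gpcpd1, which hydrolyses glycerophosphocholine, was at 111 and 31.7 CPM in libraries 3 and 4, against 18.2 and 22.9 CPM in the controls, and Gpd1l, related to the enzyme that makes glycerol-3-phosphate, at 47.2 and 9.62 CPM in libraries 3 and 4, against 5.26 and 3.98 CPM in the controls. For both, library 3 was more than 3-fold above library 4. The log2 fold change was 1.80 for Gpcpd1 and 2.62 for Gpd1l (SE 0.624 and 0.813, edgeR adjusted p = 0.184 and 0.172), and 0.65 and 1.08 without library 3. Gpd1, named after its values were seen, was at 42.5 CPM in library 3 and 0.670 CPM in library 4, against 2.14 and 2.24 CPM in the controls, so it differed in opposite directions.

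**Figure D4:**
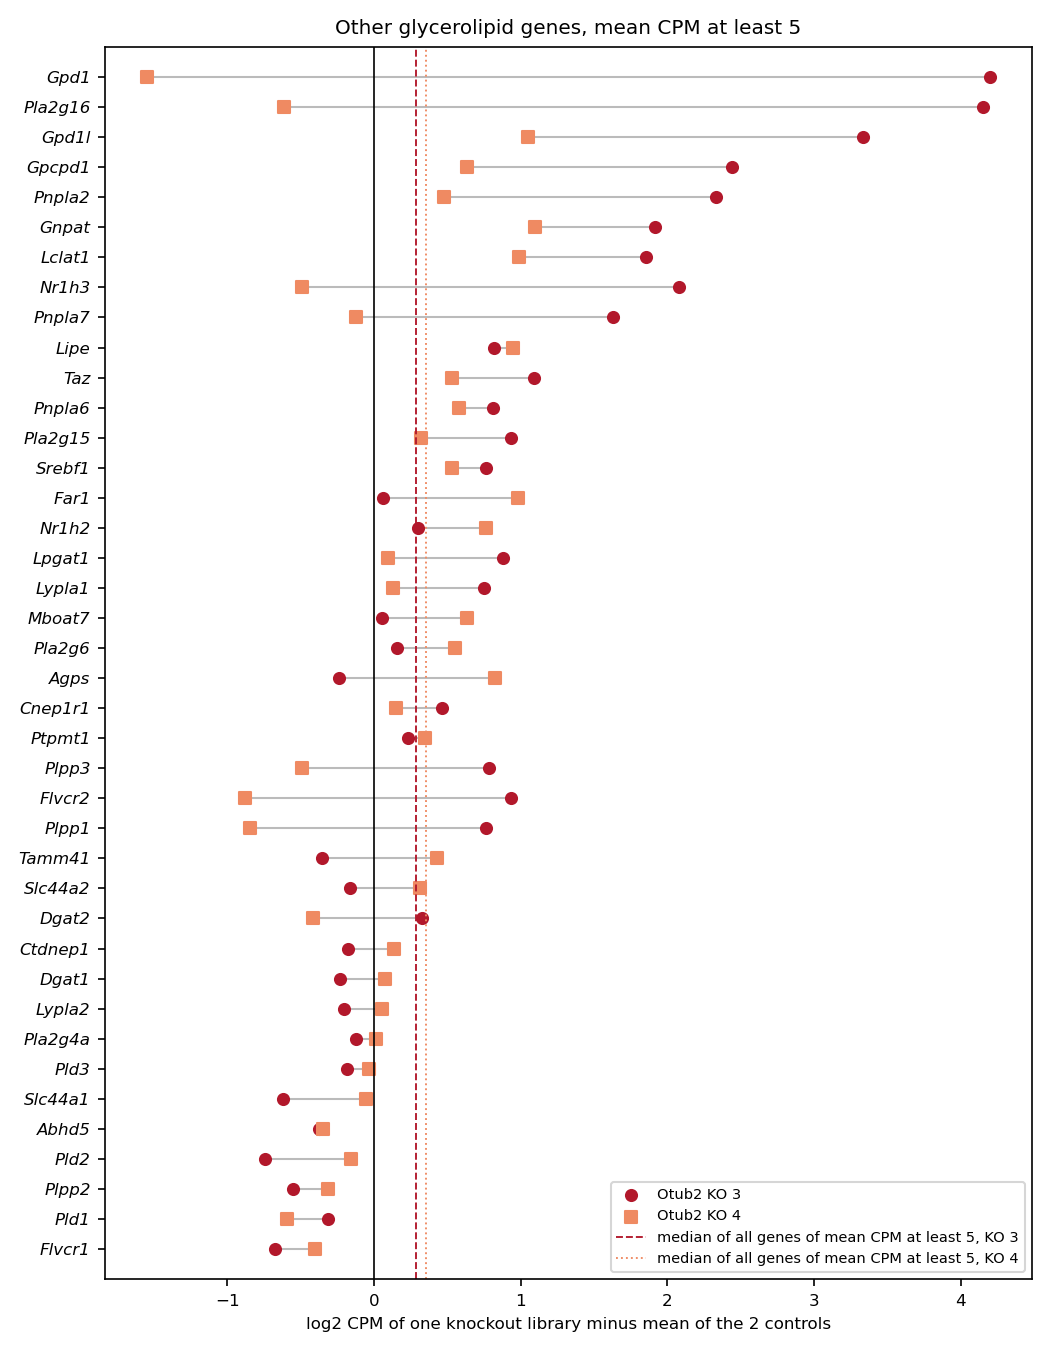
log2 CPM of library 3 (circles) and library 4 (squares) minus the mean of the 2 controls for the 40 other glycerolipid genes with a mean of at least 5 CPM, ordered by fold change, with the same median lines. Gnpat, Lclat1 and Lipe lie right of the lines in both libraries, whereas Gpd1 and Pla2g16 do so in library 3 alone.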

How the data were processed

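The authors deposited a whole-number count per gene and library and an FPKM value for each, per the file headers. HISAT2, DESeq and GRCh38, a human build, are named in the submitters' processing notes, although the gene IDs are those of mouse. The strand setting of the counting is not stated by the labels or headers, and 17 of the 33 members share exon bases with another gene. Coordinates are from GENCODE mouse release M21 (GRCm38), which holds 54409 of the 54446 gene IDs. Features without a gene ID were left out, 1.29% and 0.914% of counts in the libraries labelled Otub2 knockout and 2.84% and 2.82% in the controls.

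Counts were tested with the quasi-likelihood test of edgeR 4.0.16 (R 4.3.3), with TMM factors from the 21916 genes kept by filterByExpr, and adjusted over all of them at 0.05. Voom (limma 3.58.1) and DESeq2 1.42.0 were among 14 alternatives. Standard errors come from the F statistic, and log2 CPM uses a prior count of 2. A run of edgeR on simulated data gave every library the same spread, unlike these data, so it is no check of the results here. Libraries of a group differed by more than sampling noise, and each was kept as its own replicate. The chi-square of their counts per degree of freedom was 737 for libraries 3 and 4, far above the 14.5 for the controls.

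The members, the lists and the rules were chosen with earlier results of these data known. Values in every library were required for members at least 2-fold beyond both controls in both libraries, for rate-limiting or committed enzymes, for the 6 with the smallest p, for the 6 whose libraries labelled Otub2 knockout differ most, for those that change the lead of a step, and for the 6 other glycerolipid genes with the smallest p.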

Additional observations from a re-analysis of the deposited data

How the results depend on the processing

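No paired analysis was possible because the groups share no replicate numbers. With DESeq2, 3 members were called higher and 3 other glycerolipid genes were called, against 0 with edgeR. With upper-quartile factors, library size alone and centring on the median of expressed genes, 5, 4 and 5 of 30 members lay above both controls, beside 15.8%, 12.9% and 15.4% of expressed genes, and 12, 6 and 12 below, beside 31.2%, 21.5% and 31.7%, and the median log2 fold change of the members was -0.25, -0.23 and -0.26. With features without a gene ID kept, 19 lay above and 1 below, beside 59.5% and 6.75% of expressed genes, with a median of 0.48 where that of expressed genes was 0.67. Without a filter 1 lay below, beside 8.68%, with a median of 0.36 where that of expressed genes was 0.54. Leaving out each library in turn gave 0 to 11 members called higher, 0 to 3 called lower, 13 to 18 above and 5 to 9 below both controls (51.9% to 66.7% and 14.3% to 28.6% of expressed genes), a median of -0.026 to 0.33, and 0 to 21 other genes called. The same enzyme led a step in every remaining library in 3 to 7 steps. Each leave-one-out fit leaves a lone library without a replicate in a group, so its counts of calls are not compared here.

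Directions turned for small or split differences. Under the same 3 scalings Lpcat3 was at -0.32, -0.32 and -0.32, Gpat4 at -0.074, -0.038 and -0.082, Agpat1 at -0.17, -0.20 and -0.18, and Etnk1 at -0.24, -0.23 and -0.25 on the log2 scale. Cds1 was at 0.11 with features without a gene ID kept. Leave-one-out log2 fold changes ran from -0.089 to 3.82 for Lpin1, -0.48 to 1.22 for Agpat4, -0.12 to 1.35 for Pcyt1b, -1.23 to 0.16 for Lpcat4 and -0.49 to 0.023 for Agpat2. Chka, Cds2, Pcyt1a, Gpat3 and Gpam kept a positive sign under all 14 alternatives, and Lpcat2 a negative one. Chpt1 and Pcyt2 also stayed positive, Chpt1 from 0.067 to 4.95, and Etnk2 and Cept1 stayed negative, as did Pemt wherever it was tested. A kept sign therefore does not set genes apart. The alternatives reuse the same libraries, and the share of all genes that kept a sign was not counted. The log2 fold change over these alternatives ran from 0.71 to 1.53 for Chka, 0.75 to 1.66 for Cds2 and 0.58 to 1.30 for Pcyt1a. It ran from 0.80 to 1.53 for Gpat3, 1.03 to 3.07 for Gpam and -1.41 to -0.64 for Lpcat2. The cause of these changes was not tested.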
